A study of Mus musculus with 2 samples.

Results

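The genes described here code for 8 proteins of the PI3K, Akt and mTOR pathway: the kinases *Akt1*, *Akt2* and *Mtor*, the PI3K catalytic subunits *Pik3cd* and *Pik3cg*, the PI3K regulatory subunits *Pik3r1* and *Pik3r5*, and the lipid phosphatase *Inpp5d*. They were taken by name from the 20655 genes named on the array. All 8 were measured on both arrays, through 13 probes. RAW264.7 is a macrophage line of an adult male BALB/c mouse, derived from ascites of a tumor induced by Abelson murine leukemia virus. The cells were cultured for 24 h with vehicle control or with IR-61, a small-molecule dye, at 10 μM. Total RNA of 1 culture per condition was labelled with Cy3 and hybridised to 1 single-colour Agilent array each, so the data hold no replicate error and no test between the conditions was possible. The study examined Akt signalling by protein phosphorylation in other experiments, which were not analysed here; the arrays read mRNA levels.

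Class I PI3K is a lipid kinase that is recruited to activated receptors and converts the membrane lipid PIP2 to PIP3. PIP3 brings Akt to the membrane, where PDK1 and mTOR complex 2 phosphorylate it, and active Akt relieves the TSC brake on mTOR complex 1, which drives protein and lipid synthesis and restrains autophagy. Lipid phosphatases such as SHIP1 remove phosphates from PIP3 and so limit the signal. In macrophages the pathway carries signals from the CSF1 receptor, Fc receptors, chemokine receptors and Toll-like receptors, and the γ and δ catalytic subunits are typical of leukocytes.

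The file headers gave both arrays the same scan date, and whether they shared a slide was not established. Signals well above background were found for 77.6% of the 39429 probes with vehicle and 81.2% with IR-61, and no spot was saturated. Values below are background-corrected spot intensities, or log2 intensities after subtraction of the 75th percentile of the array ("scaled log2"), and differences are IR-61 minus vehicle on that scale. Because the IR-61 array was brighter (75th percentile 10.79 against 10.30 on the log2 scale), equal intensities on both arrays correspond to a lower scaled value with IR-61. Over the 16888 genes measured on both arrays, the median difference was 0.10, the SD between genes 0.44, and 38.8% were below 0. Of the 10 macrophage markers on the list, 9 were matched to probes and all 9 were measured, among them *Csf1r*, *Adgre1* and *Mpeg1*, while *Cd68* was not matched. The fibroblast markers *Col1a1*, *Col1a2* and *Pdgfra* were also well above background, with a summed intensity of 43036 with vehicle and 82761 with IR-61 and scaled differences of 0.10 to 0.62. The summed intensity of the macrophage markers was 303130 and 489130, of the 3 endothelial markers 3053 and 4134, of the 4 T cell markers 2090 and 3041, and of the 4 B cell markers 618 and 555. The epithelial markers *Epcam* and *Cdh1*, the T cell marker *Cd3g* and the hepatocyte marker *Apoa1* stayed within background on both arrays. The other markers of these lists were well above background on both. With vehicle and IR-61, *Krt8* of epithelium read 26.0 and 27.4, and *Alb* of hepatocytes 18.2 and 32.5. The T cell markers *Cd3e*, *Cd4* and *Cd8a* read 684 and 957, 1354 and 2003, and 49.6 and 77.6. The part of other cell types in the differences was not tested, and fewer cells of a type and less RNA per cell cannot be told apart.

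By the brightest probe of each of the 8 genes, 4 were higher with IR-61 and 4 were lower, where 38.8% of all measured genes were lower. The 4 higher were *Inpp5d*, *Pik3cd*, *Akt2* and *Akt1*, and the 4 lower were *Pik3cg*, *Mtor*, *Pik3r5* and *Pik3r1*. With the mean over the probes of a gene, 2 were higher and 6 lower. The differences of the brightest probes ran from -0.91 for *Pik3cg* to 0.60 for *Inpp5d*, with a median of -0.15. None reached a 2-fold difference, which 3.39% of all measured genes did (235 genes lower and 337 higher). At a limit of 1.5-fold, *Pik3cg* was lower and *Inpp5d* was higher. That is 2 of 8 genes, where 15.5% of all measured genes passed this limit, 5.67% lower and 9.82% higher. Both genes at the edge of the limit depended on the scaling. *Inpp5d* fell short of it, at 0.52 to 0.57, under median, detected-probe, quantile and loess scaling, normexp and the deposited values, and *Mtor* passed it under median and detected-probe scaling, at -0.65 and -0.61. For a measure of technical noise, probes printed 10 times on each array gave an SD between spots of 0.07 and 0.06 for bright probes (log2 intensity over 10, vehicle and IR-61) and of 0.18 and 0.14 for probes of medium intensity (6 to 10). The SD of a difference expected from this noise, called the spot SD below, was 0.09 and 0.23 for these classes. The difference was larger than the spot SD for 7 of the 8 genes, all but *Akt1*. The share of all genes that exceed their spot SD was not computed. Since the quartiles of all differences were -0.15 and 0.34, the count by itself does not set the 8 genes apart. The spot SD covers noise within an array only, and the spread between cultures is unknown.

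**Figure D1:**
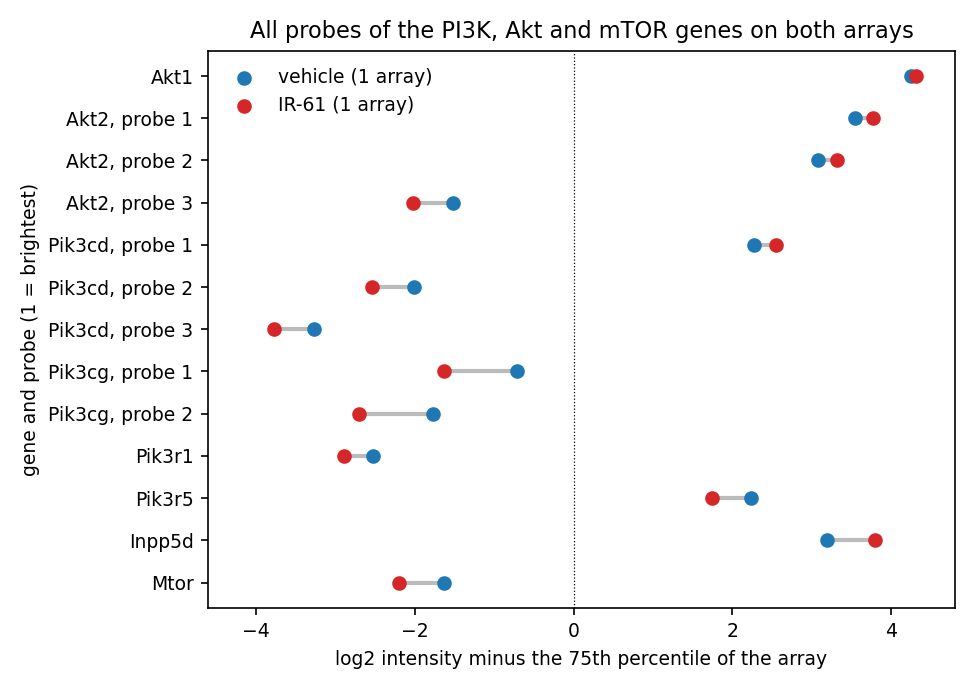
Scaled log2 intensity (log2 intensity minus the 75th percentile of the array) of all 13 probes of the 8 genes with vehicle (blue) and IR-61 (red), 1 array each; probe 1 is the brightest of its gene and a grey line joins both values. The IR-61 point lies to the left of the vehicle point for 8 of the 13 probes, including both probes of Pik3cg, and to the right for the brightest probes of Akt1, Akt2, Pik3cd and Inpp5d.

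*Pik3cg* codes for p110γ, the catalytic subunit that G protein-coupled receptors activate through Gβγ. Its brighter probe had an intensity of 772 with vehicle and 574 with IR-61, or -0.71 and -1.63 on the scaled log2 scale. The difference was -0.91, a level 1.89-fold lower with IR-61, and was 4.0 times the spot SD of 0.23. A separate, dimmer probe of the same gene read 371 and 274, a difference of -0.93 or 1.90-fold lower. The probes thus differed by 0.01 in their response, and both were lower with IR-61 in the unscaled intensities as well, where the differences were -0.43 and -0.44. Of all measured genes, 1.76% had a lower difference than the brighter probe.

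*Inpp5d* codes for SHIP1, the phosphatase of blood cells that removes the 5-phosphate of PIP3. It had the opposite direction. Its probe read 11588 with vehicle and 24700 with IR-61, or 3.20 and 3.80 on the scaled log2 scale. The difference of 0.60 was 1.52-fold higher with IR-61 and 6.40 times the spot SD of 0.09. A higher difference was found for 9.07% of all measured genes. The gene lay just past the 1.5-fold limit, which is 0.58 on the log2 scale, and *Mtor* lay just inside it on the other side. The difference between the responses of *Inpp5d* and *Pik3cg* was 1.52 on the log2 scale with a spot SD of 0.25.

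The promoters of *Pik3cg* and *Inpp5d* are shown because these genes had the lowest and the highest difference of the 8. RefSeq sequences of the assembly GRCm38.p6 cover 250 bases before and 50 bases from the annotated start, are written 5′ to 3′ on the strand of the gene, and were matched for all 8 genes. For *Pik3cg*, with several starts in the table, the 5′-most was taken. Capitals mark the PU box GAGGAA, the core motif of the macrophage factor PU.1, or its reverse complement TTCCTC. The first sequence is chr12:32208610-32208909 on the minus strand and the second is chr1:87620062-87620361 on the plus strand.
Pik3cg: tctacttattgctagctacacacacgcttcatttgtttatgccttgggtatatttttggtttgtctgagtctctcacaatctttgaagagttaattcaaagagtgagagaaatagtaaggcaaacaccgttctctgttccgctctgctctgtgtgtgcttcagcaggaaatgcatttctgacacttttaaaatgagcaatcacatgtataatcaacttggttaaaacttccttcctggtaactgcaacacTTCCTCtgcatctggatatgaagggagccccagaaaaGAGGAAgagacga
Inpp5d: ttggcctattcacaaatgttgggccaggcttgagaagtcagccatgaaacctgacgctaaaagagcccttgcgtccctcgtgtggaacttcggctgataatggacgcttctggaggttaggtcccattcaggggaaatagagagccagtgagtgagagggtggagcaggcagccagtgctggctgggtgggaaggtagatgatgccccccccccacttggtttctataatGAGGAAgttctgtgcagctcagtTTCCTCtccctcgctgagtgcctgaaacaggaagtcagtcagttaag
The annotated start is base 251 of each sequence. *Pik3cg* held a reversed PU box at bases 251 to 256 and a forward PU box at bases 288 to 293, and *Inpp5d* held a forward PU box at bases 231 to 236 and a reversed PU box at bases 254 to 259. *Mtor* was the other gene of the 8 with a PU box, reversed, at bases 185 to 190. On either strand, 28.3% of 27025 promoters of the same length held the motif, so its presence was common. Further motifs searched on both strands were AP-1 (TGANTCA, in 7.92% of promoters), FoxO (GTAAACA, 3.52%), the E-box CACGTG (7.24%), CRE (TGACGTCA, 1.85%) and the NF-κB consensus (4.32%). Of these, a FoxO motif was found in the promoter of *Akt1* and an NF-κB motif in that of *Pik3r1*. A match is a string of letters and not a measured binding site. *Spi1*, which codes for PU.1, read 1002 with vehicle and 790 with IR-61, a scaled difference of -0.83, and its part in these values was not tested.

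*Pik3cd* codes for p110δ, the other leukocyte catalytic subunit, which tyrosine kinase receptors activate through p85. Its brightest probe read 6094 with vehicle and 10395 with IR-61, 2.27 and 2.55 on the scaled log2 scale. The difference of 0.28, or 1.22-fold higher, was 2.99 times the spot SD. The dimmer probes of the gene went the other way. They read 314 and 131 with vehicle and 305 and 130 with IR-61, so their unscaled intensities were nearly equal, and their scaled differences were -0.53 and -0.50. The gap between the brightest probe and each dimmer probe was 0.81 and 0.78 with a spot SD of 0.25. The array assigns the brightest probe to a different RefSeq transcript of the gene than the other probes. The direction for *Pik3cd* therefore depends on the probe, and the mean over its probes was -0.25. With the brightest probes, *Pik3cd* and *Pik3cg* differed by 1.20 in their response.

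The regulatory subunits were both lower with IR-61 on the scaled log2 scale. *Pik3r5* codes for p101, the partner of p110γ that binds Gβγ. It read 5962 with vehicle and 5959 with IR-61, which is 2.24 and 1.75 after scaling. The difference was -0.49, 1.40-fold lower, and 5.18 times the spot SD, while the unscaled log2 difference was -0.00077 where the median of all genes was 0.59. *Pik3r1* codes for p85α and its shorter forms, which hold the class IA catalytic subunits stable and inhibited until a receptor is engaged. It read 219 and 240, or -2.53 and -2.88 after scaling. Its difference of -0.36 was 1.28-fold lower and 1.56 times the spot SD, and without scaling it turned to 0.13. *Pik3cg* was 0.43 lower in its response than its partner *Pik3r5*, with a spot SD of 0.25.

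*Akt1* and *Akt2* code for the Akt isoforms that act on growth and survival and on glucose handling, respectively. *Akt1* read 24011 with vehicle and 35246 with IR-61, or 4.25 and 4.31 after scaling. Its difference of 0.07 was smaller than the spot SD of 0.09 and close to the median of all genes, and it turned to -0.02 when the arrays were scaled by their medians. The brightest probe of *Akt2* read 14749 and 24157, or 3.54 and 3.77 after scaling, a difference of 0.22 or 1.17-fold higher. A second probe of *Akt2* read 10655 and 17681, a difference of 0.24. The dimmest probe read 443 and 436, a difference of -0.51, so that the mean over the probes was -0.01. The brightest and the dimmest probe were 0.73 apart in their response, with a spot SD of 0.25. *Akt2* exceeded *Akt1* by 0.16 in its response, with a spot SD of 0.13.

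Probes of the same gene that went in opposite directions were common on these arrays. Among 4160 genes with several measured probes, 45.7% had probes on both sides of 0, the brightest probe was above the dimmest in 66.1%, and the range between probes had a median of 0.37. In the 1667 of these genes whose probes lay at least 3 log2 units apart in intensity, as for *Akt2* (5.42) and *Pik3cd* (5.93), the share with both signs was 55.2%. The range was 0.75 for *Akt2* and 0.81 for *Pik3cd*, and 82.7% and 86.1% of the genes had a smaller range. For *Pik3cg* the range was 0.01, and 1.83% of the genes had a smaller one. The probe sequences were not used here.

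*Mtor* codes for the kinase of both mTOR complexes. Its probe read 408 with vehicle and 385 with IR-61, -1.63 and -2.20 after scaling. The difference was -0.57, or 1.49-fold lower, and 2.50 times the spot SD of 0.23. A lower difference was found for 5.94% of all measured genes. Without scaling the difference was -0.08, within the spot SD. *Akt1* exceeded *Mtor* by 0.64 in its response, with a spot SD of 0.25.

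**Figure D2:**
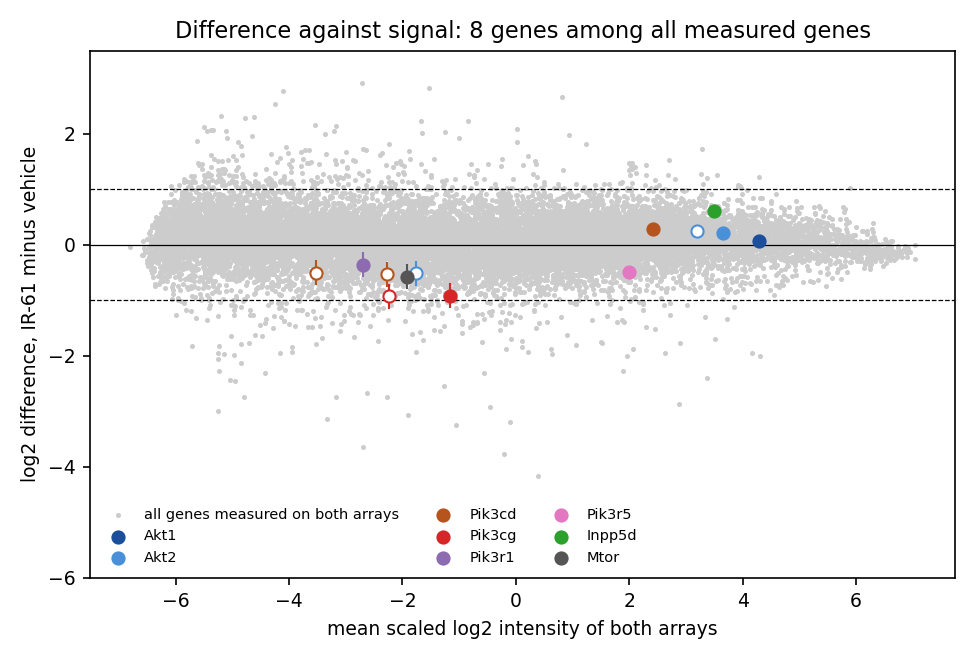
Log2 difference (IR-61 minus vehicle) against the mean scaled log2 intensity of both arrays for all 16888 measured genes (grey, brightest probe) and the 8 genes (colours; filled, brightest probe; open, other probes; bars, spot SD); dashed lines mark 2-fold. All probes of the 8 genes lie inside the 2-fold lines, with Pik3cg lowest and Inpp5d highest.

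Among the brightest probes, *Akt1* changed sign under median scaling and *Pik3r1* without scaling, and for *Akt2* and *Pik3cd* the mean over probes changed the sign. The median difference of all genes was 0.59 without scaling and between -0.03 and 0.06 under the other 6 scalings, background corrections and sources of values that moved it. Relative to the median of all genes, *Pik3cg* lay between -1.02 and -0.77 over 9 ways of processing, *Mtor* between -0.67 and -0.46, *Pik3r5* between -0.61 and -0.49, and *Pik3r1* between -0.46 and -0.35. *Inpp5d* lay between 0.48 and 0.60, *Pik3cd* between 0.16 and 0.34, and *Akt2* between 0.10 and 0.19. These genes kept their side of that median in all 9, and *Akt1* did so in 7 of 9, with values between -0.03 and 0.15. The range for *Pik3cd* and *Akt2* is that of the brightest probe.

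**Figure D3:**
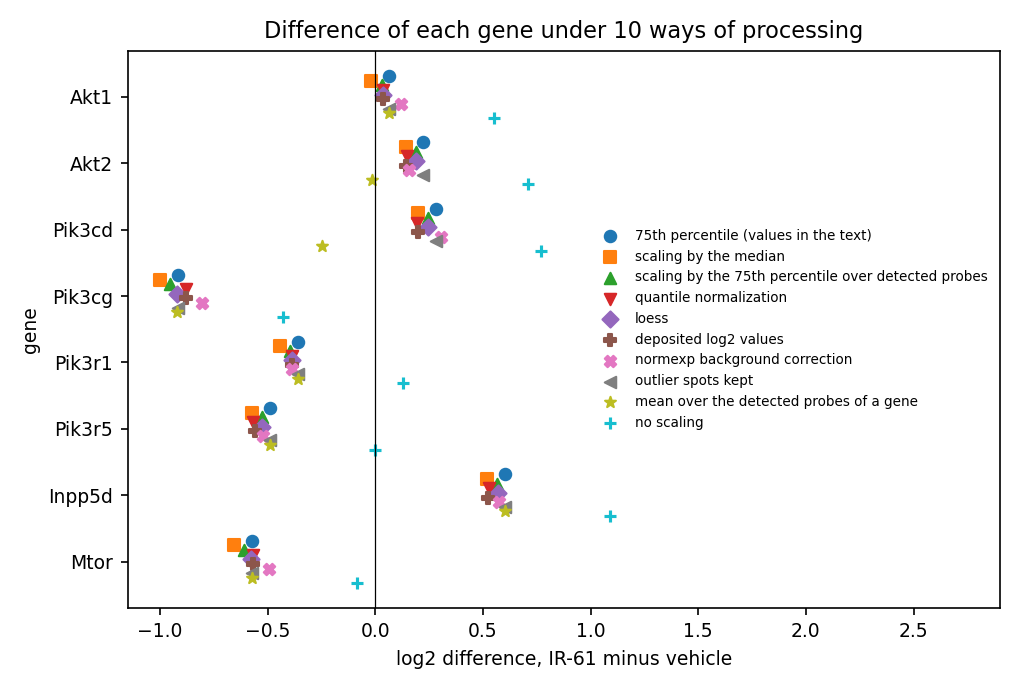
Log2 difference (IR-61 minus vehicle) of the 8 genes under 10 ways of processing the same arrays, one symbol each. Without scaling (cross), all genes shift to the right; the mean over probes (star) takes Akt2 and Pik3cd below 0, and the other 8 ways leave each gene within a narrow range.

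The wider pathway was described with a list of 108 genes in 11 role groups, the 8 genes included, of which 106 were measured on both arrays and *Inpp4b* and *Rragb* were not well above background on either. On the scaled log2 scale, 57 were higher and 49 lower with IR-61, which became 50 and 56 when the arrays were scaled by their medians, and the median difference was 0.06. Over all measured genes, 38.8% were lower and the median was 0.10. *Fnip2* and *Tbc1d4* were higher by 2-fold or more and *Trib3* and *Trib1* lower. This is 3.77% of the list, close to the share of all measured genes. At 1.5-fold, 11.3% were higher and 6.60% lower, also close to the shares of all genes. Within each role group the genes with the highest and lowest difference are given, and others named were chosen after their values were seen.

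The class I PI3K catalytic subunits had the lowest median of the role groups, -0.69. *Pik3ca* (p110α) read 883 and 736, a difference of -0.75, and *Pik3cb* (p110β) read 3866 and 3491, a difference of -0.64. With *Pik3cg*, 3 of the 4 genes were thus lower by 1.5-fold or more, where 5.67% of all measured genes were, whereas the brightest probe of *Pik3cd* was higher. These 3 genes were also lower in unscaled intensity, where the median difference of all genes was 0.59. The group of regulatory subunits and adaptors held 7 genes, with *Pik3ip1*, which is neither, among them. Of the 7, 6 were lower, where 38.8% of all measured genes were, with a median of -0.22. *Pik3r2* (-0.22), *Pik3ip1* (-0.18) and *Pik3r6* (-0.05) were within their spot SD of 0.23, 0.23 and 0.09. *Pik3r5* had the lowest difference, and *Pik3r3* (p55γ), a dim probe reading 54.6 and 123, had the highest at 0.68. Among the 5 class II and III enzymes, *Pik3c2g* was highest at 0.60 and *Pik3c3*, the VPS34 kinase of autophagy, lowest at -0.42. Without scaling, the medians of both latter groups turned positive, at 0.27 and 0.34.

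Of 9 measured phosphoinositide phosphatases, 6 were higher and 3 lower, where 38.8% of all measured genes were lower. Their median was 0.28, or 0.14 with the mean over the probes of each gene. *Inpp5d* was the highest. *Inppl1*, which codes for the related SHIP2, read 13307 and 25517, a difference of 0.45. *Synj1* was the lowest at -0.50 with a spot SD of 0.50. In the group of PDK1, Akt and SGK kinases the median was 0.14, or 0.03 with the mean over probes, *Pdpk1* (PDK1) was highest at 0.49 although its other probes lay between -0.33 and -0.08, and *Sgk1* was lowest at -0.20.

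Among the brightest probes of the whole list, *Trib3* had the lowest difference. The dimmer probe of *Lpin1* was lower still, at -2.25, against -0.35 for its brightest probe. *Trib3* codes for a pseudokinase known to bind Akt and is a target of the integrated stress response. It read 15439 with vehicle and 5581 with IR-61, a difference of -1.96 or 3.88-fold lower. *Trib1* was 2.08-fold lower, with a difference of -1.06 through 1 probe and -1.10 through the other. *Ppp2r1a*, the scaffold of protein phosphatase 2A, differed by -0.74, and *Ppp2cb*, a catalytic subunit of the same enzyme, by 0.43. In this group of Akt phosphatases and pseudokinases 6 of 8 genes were lower, where 38.8% of all measured genes were. The group median was -0.39, which turned to 0.09 without scaling.

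Among 11 subunits of the mTOR complexes and their chaperones, *Mtor* was the lowest. The others were all between -0.40 and the 0.17 of *Tti1*, and none passed 1.5-fold. *Rptor*, the scaffold of complex 1, differed by 0.01, and *Rictor*, that of complex 2, by -0.30. The next group held brakes on mTOR complex 1 together with *Rheb* (0.34) and *Rhebl1* (-0.13), the GTPases on which the TSC brake acts. Other probes of *Rheb* differed by -0.33 and 0.17, so its direction depends on the probe. Of the brakes, *Tsc1* read 3697 and 8462, a difference of 0.71. *Tbc1d7*, which codes for the third subunit of the TSC complex, read 729 and 543, a difference of -0.91. The signs of the medians of these groups, 0.01 and 0.06, changed with the scaling, and the first was -0.19 with the mean over probes.

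In the group that senses amino acids for mTOR complex 1, 13 of 21 measured genes were higher and 8 lower, with a median of 0.15. Over all measured genes, 38.8% were lower. By 1.5-fold or more, 5 of the 21 were higher (23.8%, against 9.82% of all measured genes) and none lower (against 5.67%). *Fnip1* (0.66) and *Sesn2* (0.65) lay near this limit of 0.58. Median scaling lowers all differences by the same amount, that of *Akt1* from 0.07 to -0.02, and takes both genes below the limit. *Fnip2* read 16119 with vehicle and 52548 with IR-61, a difference of 1.22 or 2.32-fold higher. It codes for a partner of folliculin, which acts on the Rag GTPases. *Flcn*, which codes for folliculin itself, differed by 0.68 and 0.63 through its probes, and the other partner, *Fnip1*, by 0.66. *Sesn1* and *Sesn2*, which code for sestrins that bind the GATOR2 complex, differed by 0.89 and 0.65. *Nprl3*, of the GATOR1 complex, was the lowest at -0.34.

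Of 17 substrates of Akt and mTOR complex 1, 10 were higher and 7 lower, where 38.8% of all measured genes were lower. Their median was 0.13, which became -0.02 with the mean over probes. *Tbc1d4*, the AS160 protein of GLUT4 traffic, differed by 1.12 through its brighter probe (529 and 1614) and by 0.05 through the other. *Ulk1*, the autophagy kinase, differed by 0.60, *Acly*, the ATP citrate lyase that Akt phosphorylates, by -0.06. *Foxo4* was the lowest of the brightest probes at -0.49 with a spot SD of 0.50, and lower values were found for other probes of *Lpin1* (-2.25), *Rps6kb1* (-0.81) and *Gsk3b* (-0.64). The brightest probes of these genes differed by -0.35, 0.40 and 0.51, in this order. A further probe of *Gsk3b* differed by 1.12, which is past 2-fold. Of 11 receptors and docking proteins upstream, *Igf1r* was highest at 0.95 (146 and 396) and *Gab1* lowest at -0.36, and *Csf1r*, the receptor through which macrophage colony-stimulating factor activates PI3K, differed by 0.06 through its brightest probe and by -0.64 and -0.12 through the others.

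**Figure D4:**
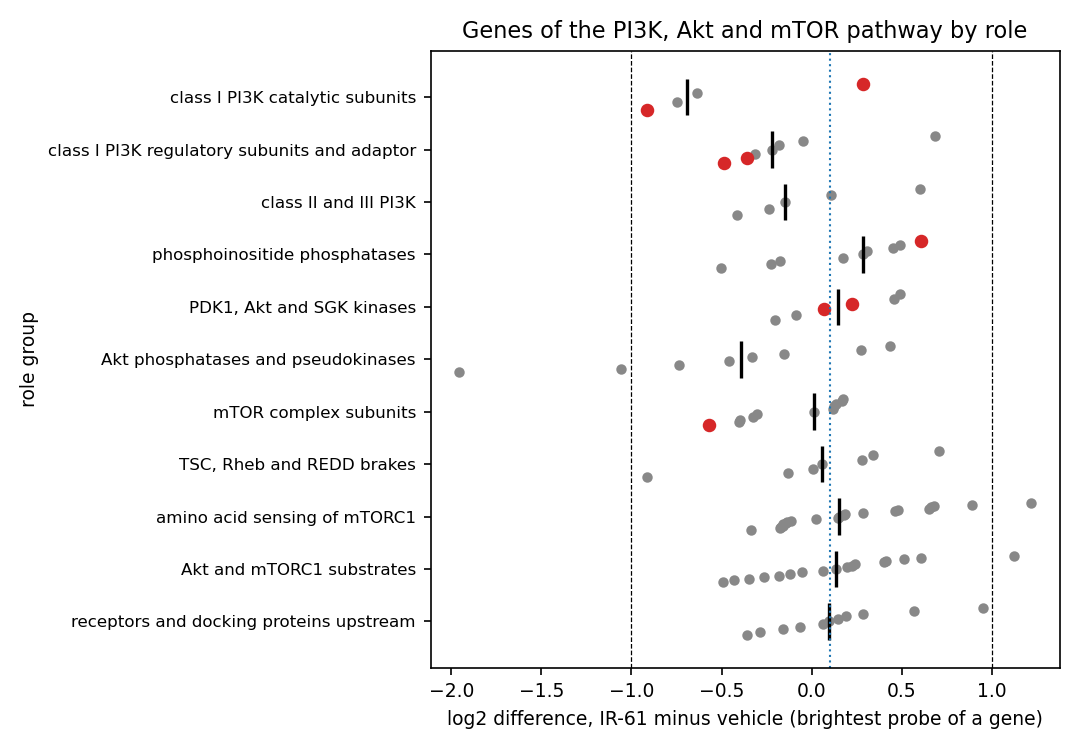
Log2 difference (IR-61 minus vehicle, brightest probe) of the 106 measured genes of the pathway list by role group; red points are the 8 genes, black bars group medians, the dotted line the median of all measured genes (0.10) and dashed lines 2-fold. The class I catalytic subunits have the lowest median (-0.69), and Trib3 at -1.96 and Fnip2 at 1.22 are the extremes.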

How the data were processed

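Gene expression in RAW264.7 cells was measured with 1 single-colour Agilent array per condition, and conditions were taken from the sample labels. The dose stands in the legend of the paper and not in the labels. The authors deposited the intensity of each spot from Agilent Feature Extraction, which subtracts the background and removes spatial trends, and flag columns coded 0 or 1. The submitters' processing notes name version 11.0.0.1 and the file headers 11.0.1.1, and the methods of the paper name an earlier version than either. A second deposited file holds log2 values by probe, made by the authors, whose columns share their quartiles (4.59 and 10.66). How it was made is not given in the sources used here, and it was used as an alternative.

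Control spots and outlier spots (124 with vehicle, 139 with IR-61) were left out, spots of the same probe were averaged as log2 intensities, and each array was scaled by subtracting its 75th percentile over all probes. Probes were named through their RefSeq accessions (27234 of 39429). The array design gives the build mm9, so the GRCm38.p6 gene table was used for names and promoters only. A gene took its brightest probe, and no depth is defined for intensities, so the number of arrays limits the precision. Scripts used Python 3.11.15, pandas 2.3.3, R 4.3.3 and limma 3.58.1, and were tested on simulated data.

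No test was run. The members, the pathway list and the marker list were chosen with earlier results of these data known. The rule for named genes took all probes of the 8 genes and, in each role group, the highest and lowest difference and any past 2-fold. Other genes named were chosen after their values were seen. Alternatives were other scalings (median, 75th percentile over detected probes, quantile, loess, none), the deposited log2 table, normexp, outlier spots kept, the mean over probes, no filter on dim probes and a 1.5-fold limit. The use of the median spot signal in normexp, with 4 spots of the IR-61 array given the median background, was chosen after seeing the data.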

Additional observations from a re-analysis of the deposited data

How the results depend on the processing

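No paired analysis was possible because vehicle and IR-61 have a single array each. The limits of these values are that number, the missing spread between cultures, and the choice of scaling and probe. Under the median, detected-probe, quantile and loess scalings, the deposited values, normexp and with outlier spots kept, no value of the 8 genes moved by more than its spot SD, and 1 sign changed, that of *Akt1* at -0.02 under median scaling. In all of these but the last, *Inpp5d* dropped below the 1.5-fold limit (0.52 to 0.57), and *Mtor* passed it under median (-0.65) and detected-probe (-0.61) scaling. Without scaling the log2 differences were 0.55 for *Akt1*, 0.71 for *Akt2*, 1.09 for *Inpp5d*, -0.083 for *Mtor*, 0.77 for *Pik3cd*, -0.43 for *Pik3cg*, 0.13 for *Pik3r1* and -0.00077 for *Pik3r5*. The median of the 8 genes was then 0.34 and 1 of them passed 2-fold, the pathway list had a median of 0.55 with 95 genes higher, 11 lower and 14 past 2-fold, the median of the Akt phosphatases and pseudokinases was 0.094, and over all genes 2156 were higher and 72 lower by 2-fold or more. That setting leaves the brighter IR-61 array uncorrected. With the mean over the probes of a gene, *Akt2* was -0.015, *Pik3cd* -0.25 and the median of the 8 genes -0.30, 2 of the 8 were higher, and the median of the Akt and mTORC1 substrates was -0.023. At 1.5-fold, 2 of the 8 genes, 19 of the pathway list and, over all genes, 1658 higher and 957 lower passed. The counts over all genes at 2-fold, 337 higher and 235 lower, were 922 and 440 with no filter on dim probes, 124 and 149 with normexp, 248 and 295 under median scaling, 257 and 279 under quantile, 242 and 279 under loess, and 266 and 281 with the deposited values. The cause of these shifts was not tested.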
